A study of Arabidopsis thaliana with 18 samples.

Results

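SR splicing factor genes were followed through deetiolation, with every isoform that the transcript tables list for them. The 10 genes were SR30, SR34, RS31, RS31a, RS40, RS41, SCL33, SCL30a, RS2Z32 and RS2Z33, chosen by their locus identifiers. All transcripts whose identifier begins with one of these loci were taken, which gave 108 transcripts of the 82190 in the tables (10 of 34212 genes). The paper's growth methods give 6 h of white light to induce germination before darkness. The seedlings were Arabidopsis Columbia-0, wild type in every group, then kept in constant darkness for 5 days and taken whole. They were collected in the dark or after 15, 30, 60, 150 or 360 min of white light (WL), with 3 libraries for each of the 6 groups and 18 in all. No seedlings were kept in the dark for the same extra minutes, so light and elapsed time cannot be told apart.

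SR proteins carry an RNA recognition motif and a stretch rich in arginine and serine. They bind exons and help U1 and U2AF to settle on the splice sites beside them, so their amounts affect which splice sites other genes use. Their own pre-mRNAs are alternatively spliced, and many of the alternative isoforms hold an early stop codon and are kept in the nucleus or removed by nonsense-mediated decay. In Arabidopsis, light and dark are known to shift the isoforms of several of them, RS31 and SR30 included.

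The libraries differed widely in useful depth. Total estimated counts ran from 3577432 to 16156302, and plastid 23S rRNA took between 3.37% and 83.9% of them. The 10 genes together held 2079 to 20064 estimated reads per library. In 4 libraries, called shallow here (60 min replicate 1, 150 min replicate 3, and 360 min replicates 1 and 2), fewer than 3000000 counts lay outside the 23S genes. The 60 min replicate 3 stood apart with the lowest 23S share. The light response itself was clear: at 360 min the 4 light marker genes fixed for this check, among them the chlorophyll-binding protein gene CAB2 and ELIP1, all rose (median log2 fold change 6.55). The paper describes biological replicates and independent experiments for each time. Nothing in the labels ties the libraries to separate batches of seedlings, so p-values measure the spread between these libraries.

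At the gene level, RS31 was the only one of the 10 SR genes that passed the test, and it did so at one time. Gene levels are given as normalized counts, which are length-scaled gene counts divided by the TMM-adjusted library size and multiplied by its mean. Each gene was tested against the dark with edgeR's quasi-likelihood test, and a gene was called at a Benjamini-Hochberg adjusted p below 0.01 over all 16747 genes tested. All 10 SR genes passed the filter on zeros.

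**Figure D1:**
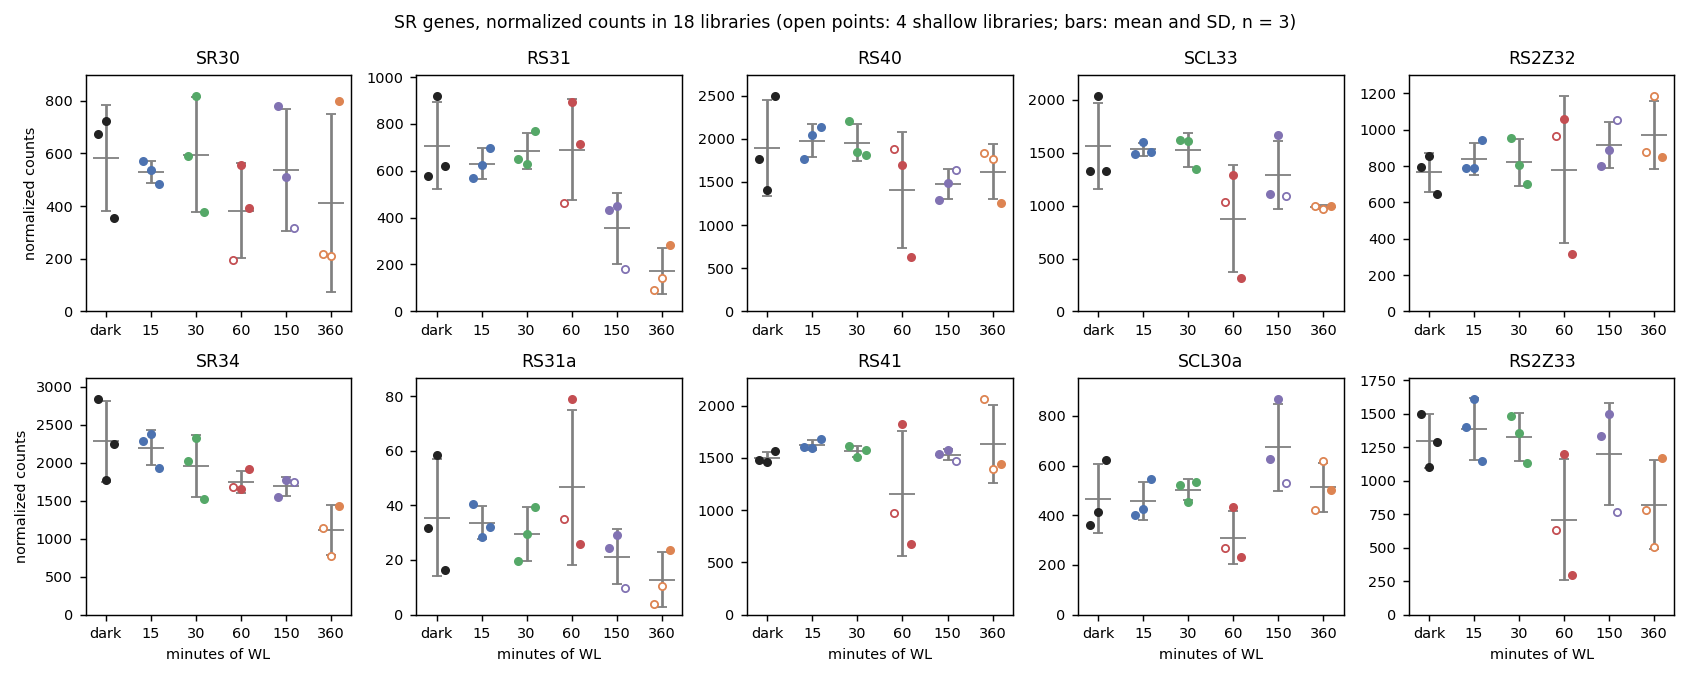
Normalized counts (y axis, from 0) of each SR gene in the dark and after 15 to 360 min of WL (x axis). Each point is 1 library, open points are the 4 shallow libraries, and bars give the mean and SD of 3 libraries. RS31 lies between 91.1 and 283 at 360 min, below its 3 dark libraries, and 60 min replicate 3 is the lowest library for RS40, RS41, SCL33, SCL30a, RS2Z32 and RS2Z33.

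RS31 (AT3G61860, chr3:22900050-22902395, minus strand of TAIR10.1) encodes an RS-type SR protein of the subfamily found only in plants. Its normalized counts in the dark were 579, 919 and 622. They were 568, 626 and 698 at 15 min and 650, 628 and 772 at 30 min. At 60 min they were 463, 895 and 714. These first hour values spread over and around those of the dark. At 150 min RS31 stood at 433, 450 and 180, and at 360 min at 91.1, 141 and 283. Every library of these later groups lay below every dark library. RS31 fell by 2.01 on the log2 scale at 360 min (SE 0.423, 3 libraries against 3), with an adjusted p of 0.00319 by edgeR's quasi-likelihood test. The 360 min group was also lower than the 15 min group, by a log2 difference of -1.84 (edgeR adjusted p = 0.00627). At 150 min the log2 fold change was -0.99 (SE 0.408), with an adjusted p of 0.234 by edgeR, and over the whole time course the adjusted p was 0.014.

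The 360 min values of RS31 rest on few reads in the shallow libraries. Replicates 1 and 2 held 21 and 39 estimated reads of RS31 and had 83.9% and 78.6% of their counts in plastid 23S rRNA, while replicate 3 held 486 reads at a 23S share of 24.0%. Without the 4 shallow libraries, an alternative added after the data had been seen, the log2 fold change was -1.28 with an edgeR adjusted p of 0.105, so the call was lost and the direction kept. That fit has 1 library left at 360 min, which is assumed to vary like the other groups. The call was also lost without dark replicate 2 (log2 fold change -1.77, adjusted p 0.021), without 360 min replicate 1 (-1.70, 0.0228) and without 360 min replicate 2 (-1.86, 0.0283), by edgeR each time. Without 360 min replicate 3 the log2 fold change was -2.60 and the edgeR adjusted p 0.000584. With library totals as the only scaling, which moved the median of all genes at 360 min to -0.65, the log2 fold change of RS31 was -2.27 and the edgeR adjusted p 0.825.

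One SR gene of 10 was thus called at 360 min, against 4.28% of all genes tested in either direction and 0.812% in the direction of RS31. In the other comparisons edgeR called none of the 10. The share of all genes called was 5.02% over the time course. After 15 min of WL it was 0, then 0.0836% (30 min), 0.848% (60 min) and 2.76% (150 min). At an unadjusted p below 0.05, edgeR had 1 SR gene over the time course, 0 in the 15 and 30 min groups, 1 in each of the 60 and 150 min groups and 2 in the 360 min group. Of all genes tested, 17.4% reached that level over the time course, and 0.884%, 2.49%, 11.2%, 14.8% and 21.4% in the groups from 15 to 360 min, so these member counts lay near the background. DESeq2 on the same counts called 1 SR gene over the time course (RS31, adjusted p 0.000275) and 0 at 15, 30, 60 and 150 min, and it called RS31 at 360 min (adjusted p 8.54e-05). DESeq2 called 10.4% of the genes it tested over the time course and 7.75% at 360 min. The median log2 fold change of the 10 genes was -0.41, -0.20 and -0.57 in the 60, 150 and 360 min groups, beside medians of 0.02, -0.03 and -0.03 over all genes tested. These medians include the shallow libraries, and the fold changes of several SR genes moved without them, as given below. At 360 min, 3 of the 10 genes (30%) had all their libraries below every dark library, against 11.3% of all genes tested, and at 150 min this held for 1 gene, RS31, against 10.9%. At 60 min it held for SCL33 alone, against 7.49%. RS41 at 15 min was the one case above the dark, against 3.91% of all genes tested.

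**Figure D2:**
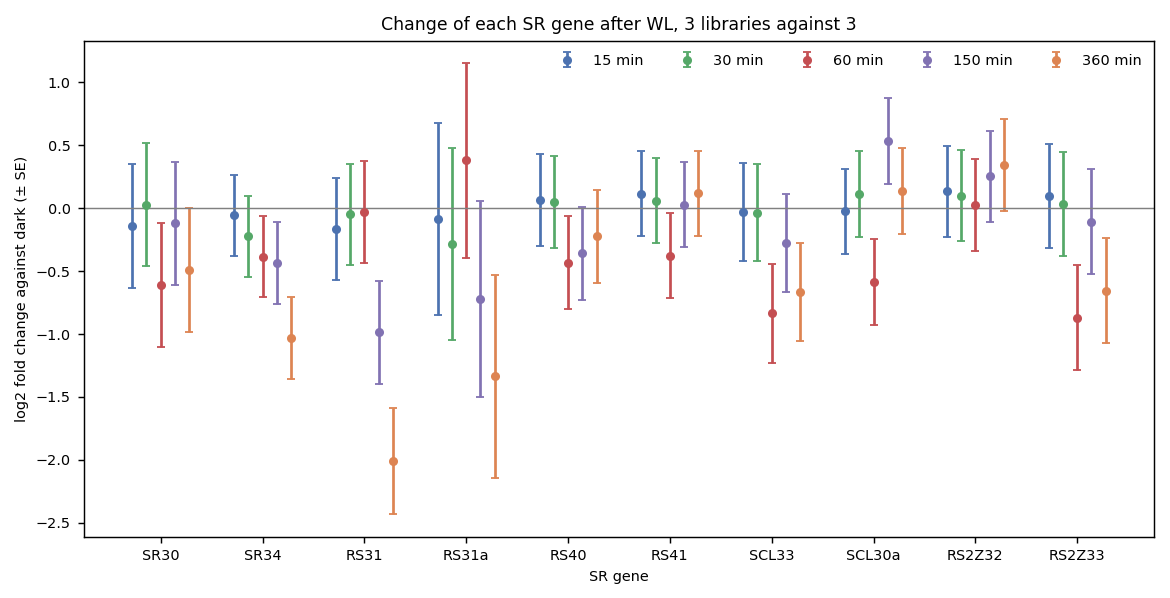
Log2 fold change of each SR gene against the dark (y axis) with its standard error, for the 5 times in WL (colours) and the 10 genes (x axis). RS31 at 360 min (-2.01) is the lowest point, and SR34 at 360 min lies at -1.03.

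SR34 and SCL33 were the other genes whose 360 min libraries all lay below the dark ones. SR34 (AT1G02840, chr1:626639-629993, plus strand) is a counterpart of human SRSF1, the classic SR protein that promotes use of nearby splice sites. Its normalized counts were 2836, 1770 and 2248 in the dark. At 360 min they were 1145, 776 and 1429. The log2 fold change of -1.03 (SE 0.326) had an edgeR adjusted p of 0.0549, short of the threshold. The groups in between had means of 2199 ± 236, 1957 ± 409, 1750 ± 146 and 1691 ± 123 (SD, n = 3) at 15, 30, 60 and 150 min. The 360 min values of 1145 and 776 for SR34 came from shallow libraries. Without the shallow libraries, the 360 min log2 fold change of SR34 was -0.63, with only replicate 3 left in that group. SCL33 (AT1G55310, chr1:20629698-20633007, plus strand), an SC35-like protein with an added N-terminal charged stretch, had 1325, 2037 and 1330 normalized counts in the dark. Its 360 min libraries were close together at 998, 970 and 993. The log2 fold change of -0.66 (SE 0.390) had an edgeR adjusted p of 0.346. The 60 min libraries, at 1034, 1287 and 313, also lay below every dark library, with a log2 fold change of -0.84 (SE 0.391), an unadjusted p of 0.0439 and an edgeR adjusted p of 0.428. The lowest of them, replicate 3, is the library with the lowest 23S share.

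SR30 (AT1G09140, chr1:2942538-2945976, minus strand) is the paralog of SR34. It had 674, 722 and 354 normalized counts in the dark and 218, 212 and 800 at 360 min, so that the dark values fell inside the range of the 360 min values. The 360 min libraries with the low values are the shallow ones, with 58 and 55 estimated reads of the gene, and the deep library had 1255. At 60 and 150 min too the shallow library was the lowest of its group for SR30 (196 and 317). The log2 fold change of SR30 at 360 min was -0.49 (SE 0.492, edgeR adjusted p = 0.608). Without the 4 shallow libraries it was 0.49 (SE 0.469, edgeR adjusted p = 0.788), so that the direction turned. At 150 min it likewise went from -0.12 to 0.13. No direction can be given for SR30 at these times.

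RS31a (AT2G46610, chr2:19136566-19138762, minus strand), the paralog of RS31, was the scarcest member, ranking 10 of 10 by TPM in each library. It held 1 to 76 estimated reads per library, and its normalized counts were 31.5, 58.5 and 16.3 in the dark and 3.96, 10.6 and 23.8 at 360 min. The log2 fold change of -1.34 (SE 0.806) had an edgeR adjusted p of 0.359. Without the 4 shallow libraries it was -0.56 (SE 0.898, edgeR adjusted p = 0.908).

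RS40 and RS41, the longer RS-type proteins, were among the most abundant members, ranking 1 to 4 by TPM in every library. RS41 (AT5G52040, chr5:21130320-21133709, plus strand) had 1482, 1459 and 1560 normalized counts in the dark and 2060, 1394 and 1437 at 360 min, with a log2 fold change of 0.12 (SE 0.338, edgeR adjusted p = 0.880). RS40 (AT4G25500, chr4:13024498-13027484, plus strand) went from 1891 ± 554 to 1621 ± 313 (SD, n = 3), a log2 fold change of -0.22 (SE 0.368, edgeR adjusted p = 0.774). At 60 min replicate 3 was the lowest library of both, at 633 for RS40 and 674 for RS41. For RS41, replicate 1 (967) also lay below every dark library, while replicate 2 (1826) lay above them. At 15 min RS41 stood at 1601, 1595 and 1678, just above its dark libraries, with a log2 fold change of 0.11 (SE 0.337, edgeR adjusted p = 1.00).

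SCL30a and the RS2Z pair make up the remaining members. SCL30a (AT3G13570, chr3:4429256-4432159, minus strand) is an SC35-like protein, with log2 fold changes of -0.59 after 60 min (SE 0.343, edgeR adjusted p = 0.580) and 0.54 after 150 min (SE 0.340, edgeR adjusted p = 0.532). Its normalized counts after 150 min were 625, 867 and 529, against 362, 412 and 624 in the dark. RS2Z32 (AT3G53500, chr3:19834240-19837088, minus strand) and RS2Z33 (AT2G37340, chr2:15670147-15672700, minus strand) carry zinc knuckles between the RNA recognition motif and the arginine-serine stretch. RS2Z32 had the highest mean at 360 min of its 6 groups, 972 ± 185 against 765 ± 106 in the dark (SD, n = 3), with a log2 fold change of 0.34 (SE 0.364, edgeR adjusted p = 0.631). RS2Z33 had 1296 ± 201 in the dark and 821 ± 332 at 360 min, with a log2 fold change of -0.65 (SE 0.419, edgeR adjusted p = 0.390). Its largest change was at 60 min, a log2 fold change of -0.87 (SE 0.421, edgeR adjusted p = 0.447), where its libraries stood at 634, 1198 and 298. Without the 4 shallow libraries the 360 min log2 fold change of RS2Z33 was -0.11, and that of RS41 turned from 0.12 to -0.02. Signs also turned, at sizes below 0.2 on the log2 scale, for RS31 and RS2Z32 at 60 min and for RS2Z33 at 150 min. With library totals as the only scaling, the 360 min log2 fold changes of RS41, SCL30a and RS2Z32 turned negative (-0.64, -0.41 and -0.46).

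Within a library, gene levels can be set side by side as TPM, which is per length. Of the summed TPM of the 10 genes in the dark, SR34 held 20.1% ± 4.22, RS40 17.98% ± 4.93, RS41 13.7% ± 0.399, SCL33 12.8% ± 3.79 and RS2Z33 10.01% ± 1.302 (SD, n = 3). RS2Z32 held 8.09% ± 1.30, RS31 6.35% ± 1.87, SR30 5.36% ± 1.92, SCL30a 5.18% ± 1.496 and RS31a 0.398% ± 0.254. The neighbours from SR34 to RS2Z33, and those from RS2Z32 to SCL30a, differed by less than the larger of their SDs. At 360 min RS31 held 1.995% ± 1.08 and RS2Z32 13.6% ± 3.47 of the same sum.

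The balance between paralogs was compared next, since members of a pair are close in sequence and role. The log2 ratio of TPM + 0.5 was taken for 5 pairs in each library, and its differences among the 6 groups were tested with a permutation test of the F statistic (100000 resamples), adjusted over the 5 pairs. No pair passed an adjusted p of 0.05. The RS31/RS31a ratio had the smallest p, with a mean of 3.92 ± 0.465 in the dark and 2.67 ± 0.395 at 360 min (SD, n = 3), a permutation p of 0.038 and an adjusted p of 0.190. Without 60 min replicate 3 its adjusted p was 0.0276 by the same permutation test. RS31a is so scarce that the pseudocount weighs on this ratio, and with a pseudocount of 0.1 the permutation p was 0.292. RS2Z32/RS2Z33 went from -0.31 ± 0.339 in the dark to 0.74 ± 0.834 at 360 min (permutation p = 0.0864, adjusted 0.216). SCL33/SCL30a went from 1.30 ± 0.615 to 0.50 ± 0.292 (permutation p = 0.139, adjusted 0.231). RS40/RS41 (permutation p = 0.604) and SR30/SR34 (permutation p = 0.773) had adjusted p-values of 0.754 and 0.773.

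**Figure D3:**
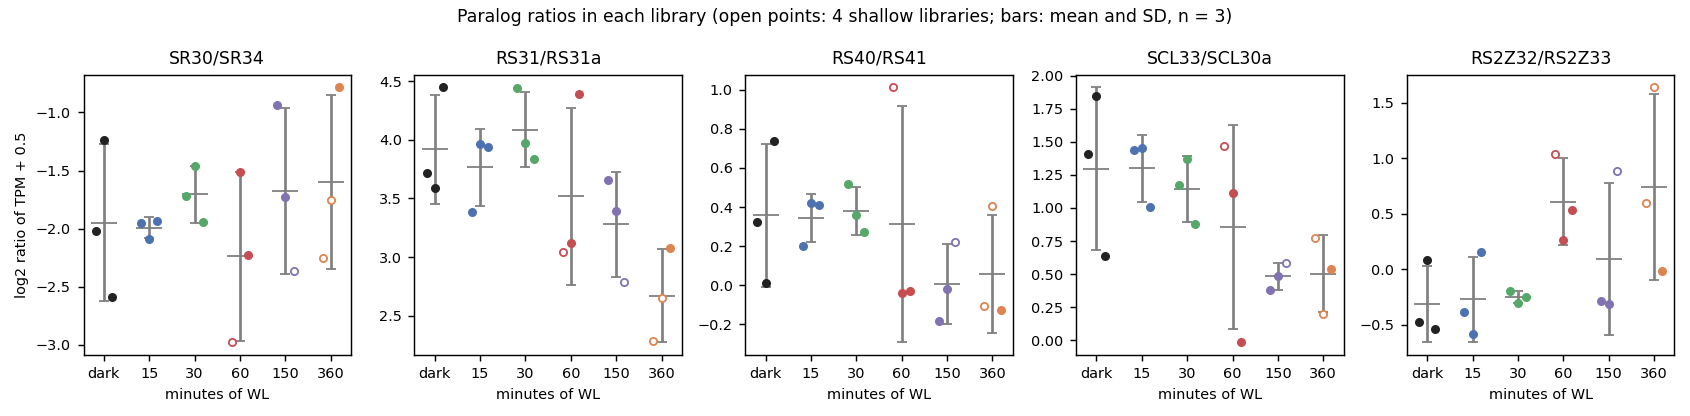
Log2 ratio of TPM + 0.5 between the members of 5 paralog pairs (y axis, 1 scale per pair) by minutes of WL (x axis). Points are libraries, open points the 4 shallow ones, and bars the mean and SD of 3 libraries. The RS31/RS31a ratio is 3.92 on average in the dark and 2.67 at 360 min, and the groups of the SR30/SR34 ratio overlap.

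The isoforms of each gene were read as shares of the gene's TPM. Of the 108 transcripts, 10 were listed at 0 in all libraries and 35 had a mean share of at least 5%. These 35 cover all 10 genes and all entered the test of shares, a limma fit on the log2 odds over 23103 transcripts. None was called in any comparison, over the time course or at any of the 5 times, and the share of all transcripts called was 0 each time. At an unadjusted p below 0.05, limma had 2 of the 35 over the time course, and 1, 3, 1, 2 and 3 of them from the 15 min to the 360 min group. At the same level it had 1259 of all 23103 over the time course (5.45%), and 4.06%, 3.98%, 8.62%, 4.54% and 5.62% of them in the groups from 15 to 360 min. edgeR's diffSpliceDGE, run at each time, called 0 of the 34 SR transcripts it could test and had 1, 3, 1, 2 and 3 of them at an unadjusted p below 0.05, where it had 5.42% to 10.4% of all transcripts.

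The shares varied so much between libraries of a group that moderate shifts could not be seen. The median residual SD was 2.83 log2 odds for the SR transcripts and 3.88 for all transcripts tested. Of the 35 transcripts, 9 were below 0.5% in 1 library and at 90% or more in another. RS2Z32_ID5 is such a case, at 98.9% in 360 min replicate 1 and at most 0.00162% elsewhere, where RS2Z32_P2, 4 bases longer, usually leads with a mean share of 70.9%. SCL30a_c1 held 100% in 60 min replicate 1 and 360 min replicate 1, and no more than 16.5% in the other libraries, while SCL30a_P1, 9 bases longer, held a mean of 76.4%. The reads were 50 bases long, and estimates of how surely each was assigned were not used here. Both of these fell in shallow libraries. Of the 9 transcripts, 5 reached 90% in shallow libraries only, and the other 4 (RS31a.1, RS31a_CR1, RS31a_ID1 and SCL30a_P1) did so in deeper libraries as well. RS31a_ID1, for one, held 100% in 150 min replicate 1.

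**Figure D4:**
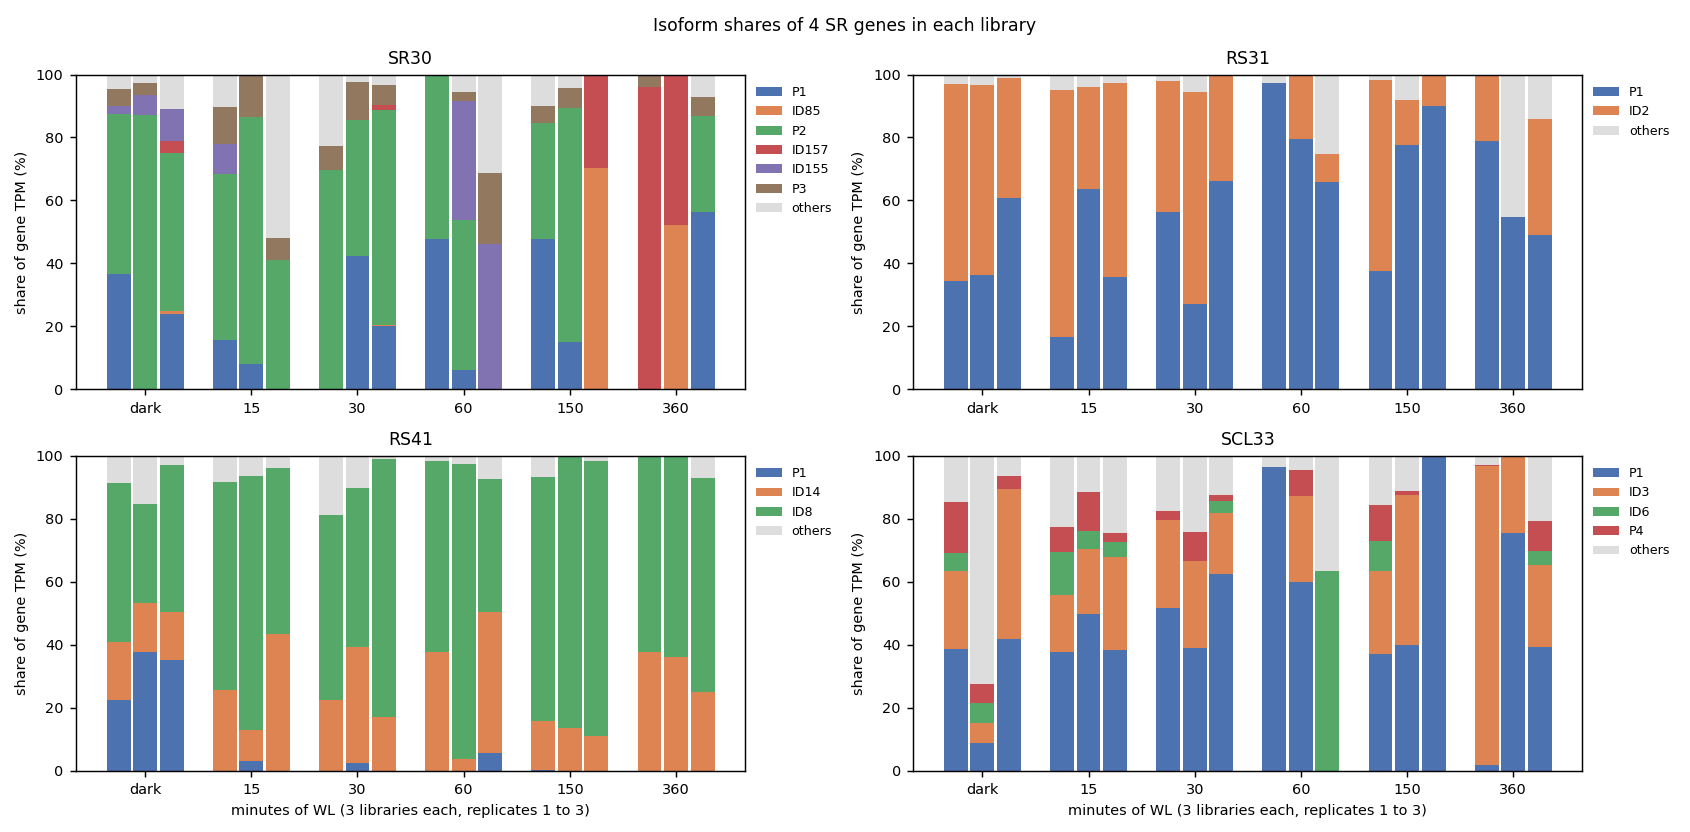
Share of the gene's TPM (y axis, percent) held by the named isoforms of SR30, RS31, RS41 and SCL33 in each of 18 libraries (x axis, 3 bars for each time, replicates 1 to 3). Grey is the sum of all other isoforms. RS41_P1 is at 22.4% to 37.6% in the dark bars and at most 5.61% in any other, while the leading isoform of SR30 changes from bar to bar.

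RS41 gave the lowest p among the SR isoforms. Most of its TPM lay in 3 isoforms of nearly the same length, P1 of 1581 bases, ID14 of 1584 and ID8 of 1553. In RefSeq's annotation of TAIR10.1, RS41 has isoforms that differ by 3 bases at the start of the last exon, where a pair of AG acceptors stand side by side. P1 and ID14 differ in length by the same 3 bases, but the transcript structures behind the tables were not used here, so the match is by length alone. The tandem acceptor is printed with both AG in capitals, since it is the place where RS41 isoforms of this step differ, at chr5:21133255-21133317 on the plus strand.
RS41 tandem acceptor: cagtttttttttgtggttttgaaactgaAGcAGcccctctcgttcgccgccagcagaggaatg

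RS41_P1 held 22.4%, 37.6% and 35% of RS41 in the dark. In the light groups its highest share was 3.01% (15 min), 2.37% (30 min), 5.61% (60 min), 0.187% (150 min) and 0.000118% (360 min). All 3 dark libraries thus lay above all 15 light libraries. Among all transcripts tested with a share in every library, 0.155% had their dark libraries above all light ones. RS41_P1 was the only one of the SR transcripts so tested. RS41_c1, too scarce for the test at a mean share of 0.187%, held 1.27%, 0.942% and 0.942% in the dark. In WL it held at most 0.167%. Against the dark, the log2 odds differed by -8.37 (SE 2.49) at 15 min and by -9.47 (SE 2.49) at 360 min. P1 was at or near 0 in most light libraries, so the size of these differences depends on depth and the 0.5 reads added. The limma p-values adjusted over all transcripts were 1 and 0.651, and 0.733 over the time course at an unadjusted p of 0.0124. The difference is therefore not called, although the groups do not overlap.

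The difference lay between isoforms of like length. P1 took 54.7%, 70.4% and 69.4% of the TPM that P1 and ID14 share in the dark and at most 23.4% in a light library. Pairs of transcripts that differ by exactly 3 bases were counted in genes with a mean of at least 100 estimated reads. A pair also had to hold a set minimum of the gene's TPM on average and to be above 0 in every library. Of 436 such pairs, 3 had the dark libraries all above or all below the light ones (0.688%), the RS41 pair among them. The leading SCL33 pair, described below, was left out, being at 0 in 60 min replicate 3. This count was not among the planned tests. ID8 held 50.3%, 31.4% and 46.6% in the dark and 42.3% to 93.9% in WL, and ID14 15.5% to 18.5% in the dark and 3.54% to 44.7% in WL. P1's part of the pair with ID14 falls when P1 falls, whether ID14 or ID8 gains. Neither ID8 nor ID14 had a called share, so the tests do not tell which one gained. All isoforms within 35 bases of P1 together held 81.3% to 100% of RS41 in every library. The gene's own level did not pass the test at any time.

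SCL33 has a tandem acceptor of the same form in RefSeq's annotation, at chr1:20632118-20632180 on the plus strand, again with both AG in capitals. It is shown because the 2 leading SCL33 isoforms, P1 (1634 bases) and ID3 (1637 bases), also differ by 3 bases.
SCL33 tandem acceptor: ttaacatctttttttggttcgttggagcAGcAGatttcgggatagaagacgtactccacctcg

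SCL33_ID3 held 39.2%, 42.4% and 53.3% of the TPM of P1 and ID3 in the dark. At 15 min it held 32.6%, 29.4% and 43.6%, and at 30 min 35.1%, 41.5% and 23.6%. In the deep 360 min library it held 39.6%. The dark and light libraries thus overlapped. The shallow libraries gave 0, 0, 98.1% and 24.4%, and 60 min replicate 3 listed both isoforms at 0. SCL33_ID6 (mean 6.51%) reached 63.4% in 1 library, and SCL33_P4 (mean 5.23%) at most 16.3%.

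SR30 uses acceptors 338 bases apart behind the same donor, according to RefSeq's annotation. Isoform SR30.1 joins the downstream acceptor and has a coding sequence of 807 bases. Isoform SR30.2 joins the upstream one and meets a stop codon 34 bases further on, with a coding sequence of 771 bases. Isoform SR30.3 retains the intron. The sequences around both acceptors and the stop codon are given on the minus strand of chromosome 1, with the AG and the stop codon in capitals, because RefSeq's isoforms of the gene differ there. The pairs compared next share the step of 338 bases with them by length alone, and their place on the gene was not checked. Their positions are chr1:2943535-2943594, chr1:2943197-2943256 and chr1:2943508-2943550.
SR30 upstream acceptor, used by SR30.2: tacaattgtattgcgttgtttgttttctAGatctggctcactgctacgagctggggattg
SR30 downstream acceptor, used by SR30.1: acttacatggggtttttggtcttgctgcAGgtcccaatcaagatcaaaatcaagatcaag
SR30 stop codon of SR30.2: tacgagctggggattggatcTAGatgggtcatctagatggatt

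The tables list 5 pairs of SR30 transcripts that differ by exactly 338 bases, P1 and P2 among them (1316 and 1654 bases). The longer and shorter members were summed over the 5 pairs, a grouping chosen after the shares had been seen and therefore given with no test. Both kinds together held 41.0% to 100% of SR30, with a median of 91.7%. The longer kind made up 59.3%, 100% and 69.9% of them in the dark. It made up 78.8%, 90.9% and 100% at 15 min and 99.8%, 50.9% and 77.5% at 30 min. At 60 min the values were 52.3%, 88.0% and 59.6%. The longer kind led in each of these libraries. At 150 min it made up 44.9%, 83.4% and 29.8%, and at 360 min 100%, 47.8% and 35.9%. The shorter kind thus led in 4 of the 6 libraries of the last groups and in none of the earlier ones, while the ranges overlapped with the dark. Of those 4 libraries, 2 are shallow. Values of 50.9% and 52.3% in earlier groups and of 44.9% and 47.8% in the last groups lie close to an even split. How often such pairs of other genes divide in this way was not counted. Of the single isoforms, SR30_ID155 reached an unadjusted limma p of 0.0304 over the time course, with an adjusted p of 0.853. SR30_P2 led with a mean of 43.5%, followed by P1 (17.8%), ID157 (9.96%), ID85 (6.86%), P3 (6.36%) and ID155 (6.24%). ID157 reached 95.9% in 360 min replicate 1, a shallow library. SR30_P3, the longest of these at 2258 bases, held at most 22.6%.

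**Figure D5:**
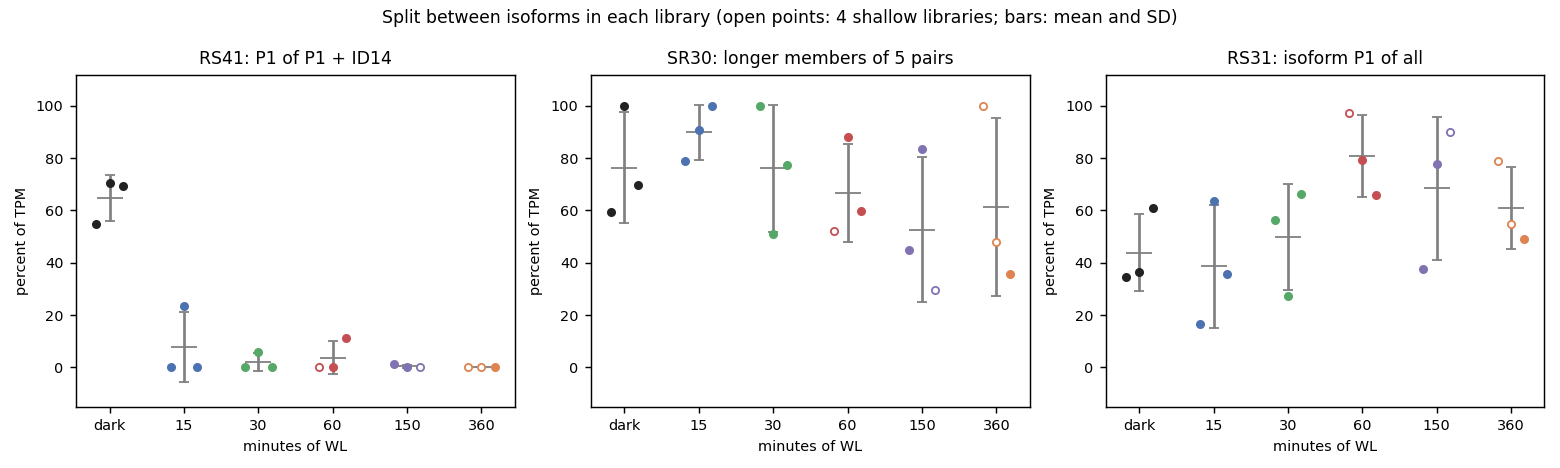
Split between isoforms (y axis, percent of TPM) by minutes of WL (x axis) for RS41 (P1 of P1 and ID14), SR30 (longer members of the 5 pairs 338 bases apart) and RS31 (P1 of all isoforms). Points are libraries, open points the 4 shallow ones, and bars the mean and SD of 3 libraries. For RS41 the dark libraries lie at 54.7% to 70.4% and the light libraries at 23.4% or less, while for SR30 and RS31 dark and light overlap.

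RS31 is divided between P1 of 1400 bases and ID2 of 1913 bases, 513 bases longer. RefSeq lists 1 isoform for the gene, so the longer one could not be placed on the genome here. P1 held 34.4%, 36.4% and 60.9% in the dark. It held 16.5%, 63.5% and 35.7% at 15 min, and 56.3%, 27.2% and 66.3% at 30 min. At 60 min it held 97.2%, 79.4% and 65.9%, which were all above the dark libraries. How many of all transcripts were so at 60 min was not counted, and the 97.2% came from a shallow library. At 150 min P1 held 37.6%, 77.7% and 89.9%, and at 360 min 78.8%, 54.7% and 49.1%, which overlap the dark. The limma test of P1 at 60 min gave a log2 odds difference of 2.98 (SE 2.03) with an adjusted p of 0.676. For ID2 the same test gave -4.58 (SE 2.24), an unadjusted p of 0.056 and an adjusted p of 0.595. ID2 was listed at 0 in 60 min replicate 1 and 360 min replicate 2, libraries with 113 and 39 estimated reads of the gene.

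Of the other genes, RS40 kept 1 leading isoform in every library. RS40_P1 held a mean of 89.3% of RS40 and at least 64.6% in each library. RS2Z33.1 held a mean of 78.4% of RS2Z33 and led except in 60 min replicates 2 and 3, where RS2Z33.2 (61.997%) and RS2Z33_CR1 (43.4%) held more. RS2Z33.3 had a mean of 5.81%. Beside P2 and ID5, RS2Z32 had P1 (mean 7.74%) and CR2 (7.29%), which held at most 28.04% and 20.5%, and SCL30a_s2 (mean 5.24%) reached 29.1%. SR34 was shared among P1 (mean 45.6%), SR34.3 (14.4%), SR34.2 (11.5%), JS2 (10.6%) and s1 (7.97%). SR34.3 is 4 bases shorter than P1, and the isoforms within 35 bases of P1 together held 52.2% to 83.8%. RS31a, with at most 76 reads in a library, was led by RS31a.1 in 12 of 18 libraries, and RS31a.1, RS31a_CR1 and RS31a_ID1 each reached 100% in at least 1 library and RS31a_CR3 64.2%.

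The genes that act with SR proteins were taken as 5 fixed lists of 35 genes in all, covering the other SR and SR-like genes, SR protein kinases and import, U2AF and U1, splicing regulators tied to light, and nonsense-mediated decay. All 35 were tested and edgeR called none of them in any comparison. At an unadjusted p below 0.05, edgeR had 5 over the time course, and 0, 1, 4, 3 and 7 from the 15 min to the 360 min group. Those are 5 and 7 of 35 where 17.4% and 21.4% of all genes tested reached that level. In the same order DESeq2 called 2, 0, 1, 0, 1 and 1, against 10.4%, 0, 0.275%, 1.95%, 5.17% and 7.75% of all genes it tested. It had 7, 0, 1, 5, 6 and 8 at an unadjusted p below 0.05, against 23.7%, 1.54%, 3.46%, 13.7%, 17.4% and 24.9%. The genes that DESeq2 called were SR45a, GRP7 and SR34b, named here after their values were seen. SR45a, an SR-like gene known to answer to high light and heat, had 573 ± 85.8 normalized counts in the dark and 1902 ± 191 after 30 min (SD, n = 3). Its log2 fold change was 1.73 with an edgeR adjusted p of 0.0878. At 360 min it stood at 569 ± 263. GRP7, an RNA-binding protein of the circadian system that affects splicing, had 5211 ± 1666 in the dark and 1488 ± 189 after 150 min. Its log2 fold change was -1.81 with an edgeR adjusted p of 0.0117. SR34b, a further paralog of SR34, had 228 ± 57.0 in the dark and 52.5 ± 52.2 after 360 min. Its log2 fold change was -2.01 with an edgeR adjusted p of 0.039. The median log2 fold change of the 35 genes at 360 min was -0.21, beside -0.03 over all genes tested.

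The seedlings were whole, so shoot and root RNA were measured together. The summed normalized counts of the shoot markers RBCS1A and CAB2 ran from 10972 to 17311 in the dark and from 246893 to 525215 at 360 min. CAB2 is also among the light marker genes used above, so this rise cannot measure the amount of shoot tissue. Of 3 root markers, SHV2 and EXPA7 were at or near 0 in the dark (means 0.977 and 0), and EIR1 had 109 ± 56.5 in the dark and 111 at 360 min. Fewer cells of a type and less RNA per cell cannot be told apart in such samples, and the part of tissue composition in the RS31 result was not tested.

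By likeness of pattern over the 18 libraries (Pearson's r of log2 normalized counts, among 11888 other genes with a mean of at least 50), SR30 was closest to NRT1.9 (r = 0.928), OVA5 (0.928) and AT5G42220 (0.912). RS31 was closest to AT2G02570 (r = 0.970), AT5G05310 (0.951) and AT1G36070 (0.929). These are descriptions, and the libraries share depth and 23S content across all genes.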

How the data were processed

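Whole-seedling RNA was sequenced as single reads of 50 bases in 18 libraries. The authors quantified them with kallisto against AtRTD2-QUASI and deposited estimated counts and TPM per transcript, and the use of strand is not given in the sources used here. A deposited table of normalized gene counts was not used. DESeq 1.36.0 and edgeR 3.26.8 are named in the submitters' processing notes. Here gene counts were rebuilt from TPM, length-scaled and rounded. Genes with 0 counts in 2 or more libraries of any group were left out, and TMM and the quasi-likelihood test of edgeR 4.0.16 were run over all 18 libraries (standard errors are the fold change over the root of F). Shares used limma 3.58.1 on log2 odds with 0.5 reads added, for transcripts with a mean share of 5% to 95% and a mean of 20 gene reads. Libraries with under 5 reads of a gene were set missing for it. DESeq2 1.42.0 was an alternative. The fits were tested on simulated data with less spread than the real libraries, for shares above all, so recovery there does not carry over to these data.

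All 10 genes and their isoforms of at least 5% are named, with list genes only if called (at most 6), apart from 3 named after their values were seen. RS41_c1, below 5%, was also named after its values were seen. Members and lists were chosen with earlier results of these data known. Sequences and coordinates are RefSeq's, build TAIR10.1. Replicate numbers were not used to pair libraries in the main fits.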

Additional observations from a re-analysis of the deposited data

Results flagged for a closer look

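RS31 differed between times in WL. The 360 min group was lower than the 15 min group by a log2 difference of -1.84 (edgeR quasi-likelihood test, adjusted p = 0.00627), and each of its 3 libraries lay below each of the 3 at 15 min. The share of all genes that differ so between these times was not counted. The 360 min replicates 1 and 2 are shallow, with 21 and 39 estimated reads of RS31. The comparison with 15 min was not rerun without them. Groups of 3 libraries are too small for a test of single outlying libraries.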

How the results depend on the processing

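The count of SR genes called over the time course was 0, and it became 1 (RS31) at an adjusted p below 0.05, with no filter on zeros and with DESeq2, and ranged from 0 to 1 when each library was left out. The count at 360 min was 1, and became 0 with library totals as the only scaling and without the 4 shallow libraries, and ranged from 0 to 1 when each library was left out. The log2 fold change of RS31 at 360 min ranged from -2.60 to -1.70 over those omissions. No count of SR isoforms moved from 0 under any alternative run, and diffSpliceDGE was not run over the time course because it takes 1 coefficient at a time. The permutation p of RS31/RS31a ranged from 0.00551 to 0.131 with each library left out, and its adjusted p fell below 0.05 without 60 min replicate 3. The lowest permutation p was 0.0325 for RS2Z32/RS2Z33 and 0.0272 for SCL33/SCL30a, and the adjusted p of the other 4 pairs stayed above 0.05 each time. With TMM-normalized counts in place of TPM the permutation p of RS31/RS31a was 0.474. Those counts are TPM scaled by a fixed length per gene and by library, so apart from rounding only the weight of the pseudocount changed. Same-numbered libraries correlated between -0.39 and 0.42, with 11 of 45 pairs over 0.1 and 8 of 18 libraries correlating best with their own number. The main fits used no pairing, and this check cannot exclude one. With a replicate block the counts of calls did not move, the log2 fold change of RS31 at 360 min was -2.03 (edgeR adjusted p = 0.00608), and the RS31/RS31a permutation p was 0.0585. Depth limits what can be seen: the shallow libraries hold 1 to 8 reads of RS31a and 21 to 113 of RS31.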
